A study of Arabidopsis thaliana with 28 samples.

Results

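The pericentromeres of Arabidopsis thaliana were described by their H3K9ac domains, the stretches of chromatin in which acetylation of lysine 9 of histone H3 was called over an IgG control. A domain belonged to the set when it lay fully inside 1 of 5 windows of the TAIR10 genome, at 13 to 17 Mb of chromosome 1, 2 to 5.5 Mb of chromosome 2, 11.5 to 15.5 Mb of chromosome 3, 2 to 5.5 Mb of chromosome 4 and 10 to 14.5 Mb of chromosome 5. The windows took up 19.5 Mb, or 16.4% of the 5 chromosomes. Of the 370373 domains in 28 lists, 10194 lay inside the windows, 360154 on the rest of the same chromosomes (99.6 Mb), 16 across a window border and 9 on the organelle genomes. A list held between 181 and 433 pericentromeric domains, with a median of 386.

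All libraries came from whole Col-0 seedlings, the reference accession, which were 10 days old and untreated. The H3K9ac antibody was the same in all of them, and each of the 14 groups had 2 replicates. The CUT&Tag group was prepared with an antibody-guided transposase that cuts and tags chromatin in place. The eChIP group was prepared with a chromatin immunoprecipitation (ChIP) that shortens the extraction of nuclei. The other groups were made with PHILO, a ChIP procedure for many small samples, from 1 mg of tissue, from 20K, 100K or 500K nuclei, with 10, 12 or 14 PCR cycles (10cyc to 14cyc), or in a depth series named for its reads, 0.5M, 1M, 2M, 5M and then 10M, where K and M stand for kilo and mega. The study describes its replicates as biological, while the labels do not say which libraries came from separate seedlings, and the tests measure the spread between these libraries. Since whole seedlings were used, a domain carried by fewer cells and a domain with less acetylation per cell cannot be told apart.

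Pericentromeres are the flanks of the centromeres. In Arabidopsis they are known as heterochromatin: dense in transposons and tandem repeats, poor in genes, and marked by DNA methylation and by methylation of the same lysine that H3K9ac occupies. Acetylation is laid down by histone acetyltransferases at the 5′ part of active genes and removed by histone deacetylases, so a domain inside this chromatin can mark one of its few active genes or an active element. The windows fitted this description in the annotation: they held 1239 protein-coding genes, or 63.5 per Mb, against 263 per Mb on the rest of the chromosomes, and 2972 pseudogenes and transposon genes, or 152 per Mb, against 18.8 per Mb. The annotation (RefSeq, TAIR10.1) lists transposon genes among the pseudogenes, and they were counted together here.

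The sequences that carry the results below fall into 3 kinds, all read from the RefSeq TAIR10.1 genome and written 5′ to 3′ on the strand given. The first are the starts of 3 Sadhu elements, retroposons that are annotated as pseudogenes and that held H3K9ac domains in 27 or 28 libraries. Each run covers 250 bases before to 50 bases after the annotated start, at chr2:4006995-4007294 (minus strand), chr5:10631991-10632290 (plus strand) and chr5:10934681-10934980 (minus strand), and the capitals mark the longest run of letters that the 3 share.
SADHU1-1: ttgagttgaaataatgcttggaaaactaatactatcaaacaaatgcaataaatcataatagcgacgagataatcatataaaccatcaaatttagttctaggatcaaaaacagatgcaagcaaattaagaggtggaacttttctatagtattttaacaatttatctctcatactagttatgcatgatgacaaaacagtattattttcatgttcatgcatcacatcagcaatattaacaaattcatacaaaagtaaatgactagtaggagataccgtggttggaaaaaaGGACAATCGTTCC
SADHU1-3: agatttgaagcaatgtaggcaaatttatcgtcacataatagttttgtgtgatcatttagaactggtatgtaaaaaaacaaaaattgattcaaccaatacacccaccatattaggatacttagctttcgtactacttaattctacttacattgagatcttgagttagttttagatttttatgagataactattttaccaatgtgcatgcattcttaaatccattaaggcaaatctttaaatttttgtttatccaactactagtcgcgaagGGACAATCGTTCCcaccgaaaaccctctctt
SADHU4-1: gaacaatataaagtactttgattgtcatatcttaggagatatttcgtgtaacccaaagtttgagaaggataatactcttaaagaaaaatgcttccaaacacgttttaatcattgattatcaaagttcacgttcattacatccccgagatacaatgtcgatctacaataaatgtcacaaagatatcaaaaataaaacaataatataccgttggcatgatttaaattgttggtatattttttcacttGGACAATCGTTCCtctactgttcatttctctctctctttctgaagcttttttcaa
The shared run, GGACAATCGTTCC, is 13 bases long and begins at position 288, 270 and 246 of the 3 runs. It was chosen after the sequences were seen, as a run shared by these 3 touched elements, which therefore hold it by choice. A given run of 13 bases is also rare by its length alone, so nothing is read from the counts that follow. On either strand it occurred in 0 of 27443 protein-coding start windows of the same length and in 6 of 16 Sadhu start windows, of which 4 belonged to the 10 elements touched by a domain and 2 to the 6 that were not.

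The second kind is the pericentromeric region over no annotated gene with the highest ChIP over IgG ratio on chromosome 3, of which the middle 300 bases are shown (chr3:14811251-14811550, plus strand). The capitals mark AAACCCTA, a letter run searched on both strands, which 6.22% of all protein-coding start windows of the same length hold.
region over no gene: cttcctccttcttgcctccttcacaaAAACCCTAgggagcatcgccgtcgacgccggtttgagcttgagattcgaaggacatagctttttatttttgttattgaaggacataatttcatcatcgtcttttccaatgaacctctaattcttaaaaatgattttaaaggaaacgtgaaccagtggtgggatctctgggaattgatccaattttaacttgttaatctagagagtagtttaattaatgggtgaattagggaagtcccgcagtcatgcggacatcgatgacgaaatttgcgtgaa

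The third kind is sequence that recurs elsewhere. Shown first are nuclear copies of chloroplast DNA in the pseudogenes AT2G12020 (chr2:4843972-4844200) and AT2G07080 (chr2:2938181-2938480), both on the plus strand, with capitals at the bases that differ from the chloroplast genome.
AT2G12020: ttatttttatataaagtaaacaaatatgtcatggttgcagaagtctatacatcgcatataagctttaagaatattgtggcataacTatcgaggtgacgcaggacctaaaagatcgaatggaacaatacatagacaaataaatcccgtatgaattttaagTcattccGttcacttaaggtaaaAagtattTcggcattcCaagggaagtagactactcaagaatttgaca
AT2G07080: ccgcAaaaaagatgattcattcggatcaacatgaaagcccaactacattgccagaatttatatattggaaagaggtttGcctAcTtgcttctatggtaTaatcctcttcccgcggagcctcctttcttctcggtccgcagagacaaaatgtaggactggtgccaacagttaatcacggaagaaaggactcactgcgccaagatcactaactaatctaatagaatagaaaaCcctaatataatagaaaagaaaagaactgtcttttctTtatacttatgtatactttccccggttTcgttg
These copies differed from the chloroplast genome at 6 of 229 and 8 of 300 bases. The others are single units of the tandem repeat of the centromeres, from chr1:15085304-15085481, chr3:13592370-13592547 and chr5:11732219-11732396 (all minus strand), with capitals at the 159 of 178 bases that the units taken from all 5 chromosomes share.
unit of chromosome 1: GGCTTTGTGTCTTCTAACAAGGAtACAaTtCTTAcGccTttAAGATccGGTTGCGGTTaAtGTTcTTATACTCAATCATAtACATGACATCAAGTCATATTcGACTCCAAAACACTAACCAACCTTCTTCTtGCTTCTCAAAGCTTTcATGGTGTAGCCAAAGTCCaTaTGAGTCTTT
unit of chromosome 3: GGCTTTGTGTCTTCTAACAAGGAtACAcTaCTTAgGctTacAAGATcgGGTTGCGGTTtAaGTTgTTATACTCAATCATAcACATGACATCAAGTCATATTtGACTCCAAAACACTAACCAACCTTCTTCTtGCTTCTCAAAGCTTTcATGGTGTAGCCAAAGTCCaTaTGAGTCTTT
unit of chromosome 5: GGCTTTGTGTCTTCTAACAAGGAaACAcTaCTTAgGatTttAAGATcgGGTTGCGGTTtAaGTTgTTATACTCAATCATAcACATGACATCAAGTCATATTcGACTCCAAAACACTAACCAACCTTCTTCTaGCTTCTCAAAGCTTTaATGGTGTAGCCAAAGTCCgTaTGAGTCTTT
In the windows, domains on the chloroplast-like and the tandem repeat sequences occurred in particular libraries only, and their values are given with those libraries below.

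H3K9ac domains were sparse in the pericentromeres in every library. Their density was 18.7 ± 3.26 domains per Mb in the windows and 129 ± 16.96 per Mb on the rest of the chromosomes (SD, n = 28 libraries). In the libraries of 10M reads, 429 and 433 domains lay in the windows, against 14751 and 14804 outside. The mean log2 ratio of the densities was -2.80, a fold of 0.143, and the density was lower in the windows in 28 of 28 libraries. A two-sided sign-flip permutation test over the 14 group means gave p = 0.000122, the smallest value it can give (adjusted p = 0.000171 by the Benjamini-Hochberg method over 7 measures). All libraries share the genome and 1 IgG control, so this test covers the spread between libraries and not between places in the genome.

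The decline followed the distance from the middle of the windows. In the 0.5-Mb bins on either side of the middle, the 10M libraries held 4 and 6.4 domains per Mb, averaged over the 5 chromosomes. At 4.75 Mb from the middle on the right side, both libraries held 145.6 domains per Mb. Protein-coding genes declined too, with 56 and 21.6 per Mb in the bins left and right of the middle and 267.6 per Mb at 4.75 Mb on the right. The bin left of the middle held the fewest domains but more genes than the next bin outwards, which had 40 per Mb. On chromosome 2 that bin holds an insertion of the mitochondrial genome (chr2:3250465-3509765). For it, 124 annotated genes of several classes, numbered between AT2G07660 and AT2G07840, were counted, and it holds others beside them. Its protein-coding genes are part of the mean of 56 per Mb. Pseudogenes and transposon genes ran the other way, with 182.4 per Mb at 0.75 Mb right of the middle and 14.4 per Mb at 4.75 Mb.

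**Figure D1:**
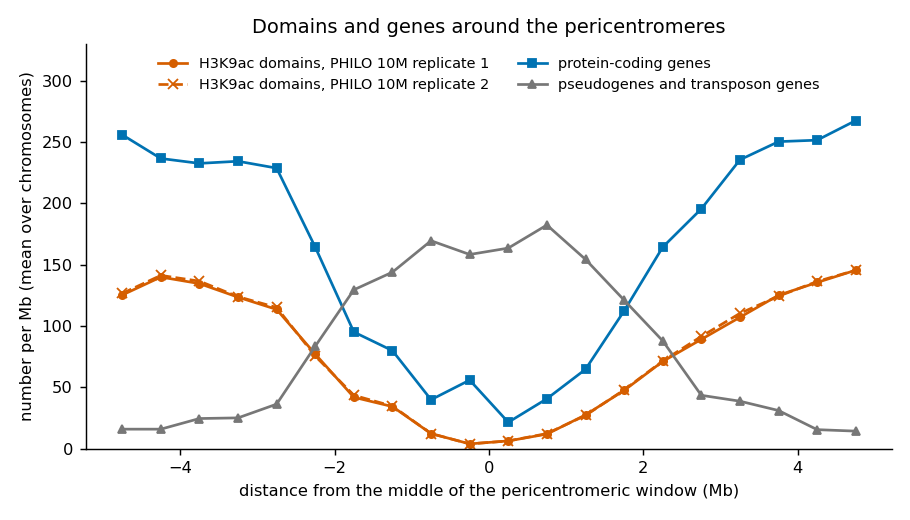
Number of H3K9ac domains (2 libraries of 10M reads), protein-coding genes, and pseudogenes with transposon genes per Mb, in bins of 0.5 Mb against the distance from the middle of the pericentromeric window, as means over the chromosomes that reach a bin. Domains are at their lowest left of the middle (4 per Mb) and protein-coding genes right of it (21.6 per Mb), while pseudogenes and transposon genes are most frequent at 0.75 Mb right of it (182.4 per Mb).

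The chromosomes differed in how empty their windows were. Over the 28 libraries, the median density in the window was 9.38 domains per Mb on chromosome 3, 16.6 on chromosome 2, 20.8 on chromosome 1, 23.9 on chromosome 5 and 27.9 on chromosome 4. The density on the rest of the same chromosome was, at the median, 14.8 times that in the window on chromosome 3 and 4.78 times on chromosome 4. Chromosome 3 was the sparsest of the 5 in both 10M libraries as well, with 46 domains in each, against 110 in each on chromosome 4. At the window borders, which the rule placed at round positions, the 10 domains just inside had widths of 400 to 1200 bp and ratios of ChIP to IgG of 2.08 to 9.61, and the 10 just outside had widths of 200 to 1800 bp and ratios of 1.99 to 14.9 (10M replicate 1).

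Pericentromeric domains were also narrower. Their median width was 871 ± 124 bp, against 1121 ± 251 bp on the rest of the chromosomes (SD, n = 28), a difference of -250 bp (permutation test over the 14 group means, p = 0.000122, adjusted p = 0.000171). The median was lower in the windows in 27 libraries and equal in 1. Together with the low density this left 2.06% ± 0.434 of the windows covered, against 18.8% ± 4.46 of the rest, a fold of 0.110. The sequence under the domains had a GC content of 38.6% in the windows and 39.3% on the rest.

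The acetylation signal of those domains that were called was not shown to be lower. The ratio of ChIP to IgG reads, each scaled to its library size and pooled over all domains of a library, is called enrichment here. It was 4.13 ± 1.26 in the windows and 4.26 ± 1.13 on the rest (SD, n = 28), a log2 ratio of -0.09 (permutation test, p = 0.393). In the 10M libraries enrichment was 4.73 and 4.60 in the windows, against 4.49 and 4.33 on the rest, and 21 of 28 libraries lay higher in the windows. The 7 libraries that lay lower were both of 0.5M reads, replicate 1 of 1M reads, both of 20K nuclei and both of CUT&Tag. The median over single domains, which does not weigh them by their reads, was higher in the windows in 27 of 28 libraries, with a log2 fold change of 2.14, against 2.03 (difference 0.10, p = 0.000244 in the same permutation test).

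A few domains with many IgG reads moved with the pooled ratio. Domains in the windows held 116 ± 93.6 IgG reads per kb, against 74.9 ± 0.625 on the rest (log2 ratio 0.37, permutation p = 0.000244, adjusted p = 0.000285), and 47 pericentromeric domains held more than 200 per kb. They occurred in the libraries of 0.5M reads (5 and 2), in replicate 1 of 1M reads (1), in both of 500K and both of 100K nuclei (1 each), in those of 20K nuclei (16 and 13) and in CUT&Tag (5 and 1). Their reads made up 60.5% (95% Wilson interval 60.2 to 60.8) and 58.3% (58.0 to 58.6) of the pericentromeric ChIP reads of the 20K libraries, 80.1% (79.8 to 80.3) of those of CUT&Tag replicate 1 and 48.3% (47.2 to 49.4) of those of 0.5M replicate 1. These intervals cover counting error only, since PCR reads without molecular identifiers are not independent molecules. Without the domains of more than 200 IgG reads per kb, a limit chosen after seeing the data, enrichment was 4.56 ± 1.31 in the windows and 4.27 ± 1.13 on the rest, a log2 ratio of 0.08, and 25 of 28 libraries lay higher in the windows. The 3 that stayed lower were both of 20K nuclei, with 2.22 and 2.19 in the windows, against 2.36 and 2.42 on the rest, and CUT&Tag replicate 2, with 2.438, against 2.461. Since the filter picks domains by the denominator of the ratio, this value is a description with no test.

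**Figure D2:**
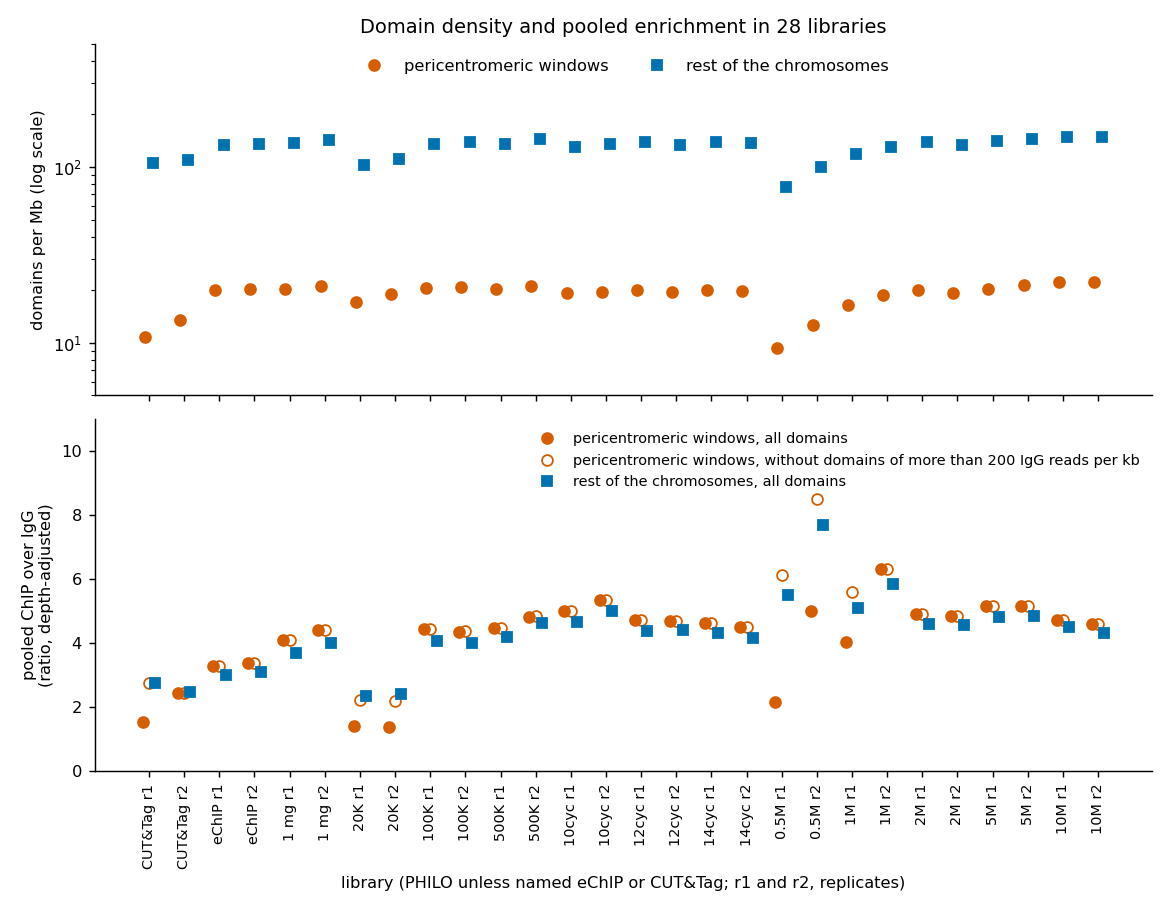
Upper panel, domains per Mb (log scale) in the pericentromeric windows and on the rest of the chromosomes in each of the 28 libraries. Lower panel, pooled enrichment (ChIP over IgG) in the windows (filled), in the windows without domains of more than 200 IgG reads per kb (open), and on the rest (squares). The density is lower in the windows in all 28 libraries, while enrichment in the windows lies below the rest in 7, among them both libraries of 20K nuclei (1.41 and 1.39 in the windows, against 2.341 and 2.398 on the rest), where it stays below without the domains of high IgG.

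Most pericentromeric domains lay on protein-coding genes, but fewer than elsewhere. A protein-coding gene was touched by 85.0% ± 2.996 of the domains in the windows and by 97.4% ± 0.847 on the rest (SD, n = 28), a difference of -12.4 percentage points. A pseudogene or transposon gene was touched by 8.02% ± 1.54, against 1.36% ± 0.303, a difference of 6.67 points. Domains over no annotated gene made up 4.13% ± 2.08 in the windows and 0.807% ± 0.804 on the rest. All 28 libraries showed these 3 directions (p = 0.000122 in each permutation test, adjusted p = 0.000171). The start of a protein-coding gene lay in 32.3% ± 8.46 of the pericentromeric domains, against 44.1% ± 12.0 of the others, also lower in 28 of 28 libraries. These shares are of all domains, including those that touch no protein-coding gene.

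Seen from the genes, a pericentromeric gene was less often covered. Of the 1239 protein-coding genes in the windows, 26.7% ± 3.97 were touched by a domain per library, against 58.8% ± 6.59 of the 26204 on the rest (SD, n = 28; lower in 28 of 28 libraries; permutation test over group means, p = 0.000122). Over all libraries, 722 protein-coding genes of the windows (58.3%) were touched in none, against 6596 (25.2%) of the rest, and 96 (7.75%) were touched in all 28, against 7294 (27.8%). Pseudogenes and transposon genes were touched at 1.01% ± 0.337 in the windows and 9.16% ± 1.75 on the rest, so this class was rarely acetylated in the windows although it supplied a larger share of the domains there. Non-coding RNA genes were touched at 10.6% ± 1.73 in the windows and 33.3% ± 6.38 on the rest. Both classes were lower in the windows in 28 of 28 libraries (permutation p = 0.000122 each).

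The most frequent members recurred across libraries. Merging the domains of both 10M libraries gave 422 regions fully inside the windows and 14349 on the rest. Of these, 99 (23.5%) were found in all 28 libraries, against 5755 (40.1%). The pericentromeric regions had a median width of 800 bp, against 1000 bp, and a median enrichment of 4.57, against 4.34. They comprised 363 over protein-coding genes, 23 over pseudogenes or transposon genes alone and 14 over no gene, and the remainder lay over other gene classes.

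The region with the highest enrichment differed in kind between the windows. On chromosome 1 it was chr1:16310001-16311000 over AT1G43245, a gene of a SET-domain protein, with a lowest enrichment of 2.81, a median of 12.1 and a highest of 30.9 over 28 libraries. On chromosome 2 it was chr2:2361401-2362200 in OPR3, the reductase of jasmonate synthesis, with 2.49, 9.42 and 37.5. On chromosome 4 it was chr4:2609201-2610000 over AT4G05090, with 2.402, 8.46 and 16.8. In these 3 regions the highest value was that of 0.5M replicate 2, and the lowest came from CUT&Tag or from 20K nuclei. On chromosome 3 it was the region over no gene shown above (chr3:14811201-14811600), with 5.88, 11.02 and 15.9 over 25 libraries. It was missing from 0.5M replicate 2 and from both CUT&Tag libraries. On chromosome 5 it was the Sadhu element SADHU1-3.

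The widest regions ran over several neighbouring genes. On chromosome 4, a region of 4800 bp (chr4:2587401-2592200) ran over the polyubiquitin gene UBQ11 and its neighbours, with enrichment from 2.30 to 6.45 and a median of 4.52 over 28 libraries. On chromosome 2, a region of 3600 bp (chr2:2586801-2590400) joined RPA1A, a subunit of replication protein A, PSBX, a subunit of photosystem II, and VPS2.1 of the ESCRT machinery, with values from 2.28 to 9.47 and a median of 5.34. On chromosome 1, a region of 3600 bp (chr1:15975801-15979400) ran over GLR3.3, a glutamate receptor-like channel of wound signalling, and PMI1, which acts in chloroplast movement, with 1.67 to 7.94 and a median of 3.88. All 3 were found in every library. The widest regions of chromosome 3, over AT3G30770 and the proline dehydrogenase gene ERD5 (3200 bp, 26 libraries, median 2.64), and of chromosome 5, over the cysteine metabolism genes CYSD2 and DES1 (3000 bp, 22 libraries, median 2.53), had lower medians.

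Sadhu elements gave 3 of the 23 regions over pseudogenes alone. Of the 6 annotated elements in the windows, 3 were touched by a domain and 2 of them in all 28 libraries, and of the 10 on the rest, 7 were touched and 4 in all 28. SADHU1-1 (chr2:4006201-4007200) had a lowest enrichment of 2.45 in CUT&Tag replicate 1, a median of 10.8 and a highest of 17.97 in 0.5M replicate 2. SADHU1-3 (chr5:10632201-10633000) had 2.36, 9.62 and 13.1 in 27 libraries and was missing from CUT&Tag replicate 1. SADHU4-1 (chr5:10933801-10934800) had 2.74, 5.88 and 19.1 in 28 libraries. The other pericentromeric members, SADHU9-1, SADHU7-2 and SADHU3-2, carried no domain in any list, so acetylation was spread unevenly within the family. Since these elements resemble each other, reads could have been assigned to the wrong copy, and how such reads were handled is not given in the sources used here.

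The other pseudogene regions named were found in all 28 libraries, with medians below those of SADHU1-1 and SADHU1-3. AT1G35612 (chr1:13145601-13147600) had a lowest enrichment of 2.42, a median of 7.52 and a highest of 9.19. AT3G29776 (chr3:11655401-11656400) had 2.26, 6.25 and 9.69, and AT4G04692 (chr4:2375801-2376400) had 2.04, 5.75 and 13.5. As in the protein-coding regions, the low ends of all 3 came from the libraries of 20K nuclei and CUT&Tag.

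Acetylation over no annotated gene was found in 14 regions. Their enrichment in the 10M libraries was 1.29 to 10.5 with a median of 4.62, and the nearest gene lay 241 to 5036 bp away, with a median of 1594.5 bp. Of these regions, 10 were found in at least 20 libraries and 1, chr5:13102401-13103200, in all 28, with an enrichment of 6.17 in the 10M libraries. Besides the region of chromosome 3 shown above, chr3:12559401-12560000 and chr4:5358401-5359000 were the strongest, with 7.63 and 7.62. Transposons without a gene annotation were not analysed here.

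Genes of known function in the windows were described through 4 lists of 39 genes in all, beside the 1239 protein-coding genes of the windows, of which 96 were touched in 28 libraries, 235 in 20 to 27, 186 in 1 to 19 and 722 in none. Of 15 genes of photosynthesis and of carbon or nitrogen metabolism, 6 were touched in 28 libraries, 7 in 20 to 27, 1 in 12 libraries (PGLP1, a phosphatase of photorespiration) and 1 in none (the sucrose synthase SUS4). NPQ4, which encodes the PsbS protein of photoprotection, had enrichment from 2.39 to 7.07 with a median of 5.12. NIA2, a nitrate reductase, had 2.14 to 8.43 with a median of 5.38, and PSBQ-2, a photosystem II protein, had 2.08 to 7.59 with a median of 5.11, each in 28 libraries. GAPB, a Calvin cycle dehydrogenase, had 2.34 to 5.02 with a median of 3.83 in 27. The members were picked as well-known genes, and nothing is read from the difference to the windows' genes as a whole.

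Of 12 signalling, transcription and chromatin regulators, 5 were touched in 28 libraries, 3 in 20 to 27, 1 in 16 (the brassinosteroid synthesis gene BR6OX2) and 3 in none. The 3 without a domain were KNAT1 and AN3, regulators of meristem and leaf growth, and the replication gene MCM5. SOS2, a kinase of salt tolerance, had enrichment from 1.79 to 10.8 with a median of 7.59 in 28 libraries, and ARP6, a subunit of the SWR1 chromatin remodeller, had 2.50 to 10.2 with a median of 5.92. The kinase gene MEKK1 had 1.65 to 13.0 with a median of 6.20 in 27. Of 8 housekeeping genes, 3 were touched in 28 libraries and 5 in 20 to 27, among them UBQ10 (28 libraries, 2.21 to 9.36, median 5.32) and the aconitase gene ACO3 (27 libraries, 2.85 to 20.3, median 5.997).

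The last list held 4 genes tied to transposons, orphan genes or ribosomal RNA, and they differed widely. DAYSLEEPER, a gene derived from a hAT transposase, was touched in 27 libraries with 2.57 to 9.76 and a median of 6.55. The orphan gene QQS, which acts in starch metabolism, was touched in 4 libraries with 1.98 to 2.38. The 18S and 5.8S ribosomal RNA genes were touched in 3 libraries, 0.5M replicate 1 and both of 20K nuclei, with 1.08 to 1.18, in a region (chr3:14172401-14209000) of more than 200 IgG reads per kb.

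The share of domains in the windows grew with depth. In the depth series it was 2.32% and 2.43% at 0.5M reads and 2.83% and 2.84% at 10M, and over the 10 libraries Spearman's rho with the labelled depth was 0.935 (permutation p = 0.00035, adjusted p = 0.0007). Pearson's r with log10 of the depth was 0.857 (permutation p = 0.00021, adjusted p = 0.00042) and 0.865 without the 2 libraries of 0.5M reads, which lie farthest from the median depth. With all domains counted, the share of reads in domains that fell in the windows did not grow with depth (rho = -0.64, permutation p = 0.0557, r = -0.53, permutation p = 0.0253, and r = -0.44 without the libraries of 0.5M reads). Without the domains of high IgG described above, these shares of reads were 1.98% and 2.11% at 0.5M reads. They lay between 2.21% and 2.28% in the libraries of 1M to 10M reads. The relation with depth was not tested without these domains. The ChIP reads in all domains ranged from 207252 to 7244177 per library.

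Libraries of 20K and 100K nuclei had a larger share of domains in the windows, while those of 1 mg of tissue were not shown to differ. The study reports that data quality dropped markedly at the lowest number of nuclei. The 2 libraries of 20K nuclei had 3.14% and 3.24% of their domains in the windows, against a mean of 2.71% ± 0.142 (SD, n = 16, range 2.32 to 2.84) in PHILO libraries of the series of depths and cycles. The difference of 0.484 points had an exact two-sided permutation p of 0.0131, the smallest this design allows (adjusted p = 0.0392 over 6 differences). By reads the gap was wider, with 7.47% and 7.42%, against 2.37% ± 0.370, a difference of 5.07 points (exact permutation p = 0.0131, adjusted p = 0.0392). Without the domains of more than 200 IgG reads per kb the 20K shares of reads were 3.12% and 3.27%, against 1.98 to 2.29% in the 16, and the difference in domains was 0.362 points. The libraries of 100K nuclei also lay above all 16, with a mean of 2.87% of domains (difference 0.159 points, adjusted p = 0.0392 in the exact permutation test), but not by reads (difference -0.0614 points, adjusted p = 0.800). Without the domains of more than 200 IgG reads per kb, the 100K shares of reads were 2.306% and 2.302%. These lay above the highest of the 16, 2.292%, and the difference was not tested. The groups of 500K nuclei, 1 mg of tissue and eChIP differed from the 16 by 0.0970, 0.126 and 0.131 points (adjusted p = 0.170, 0.0627 and 0.0588, exact permutation tests). CUT&Tag lay lower, with 1.96% and 2.34%, a difference of -0.559 points that missed the threshold after correction (exact permutation p = 0.0261, adjusted p = 0.0523). Each comparison is of 2 libraries, so preparation batch and group cannot be told apart. The tests permuted single libraries, although the 16 are replicate pairs that also differ in depth, and the share of domains grew with depth. Their p-values therefore do not measure the spread between groups.

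The 20K libraries owed part of this share to regions that no other group had. Regions found in both 20K libraries and in no other group numbered 28 in the windows, 5.58% of the 502 merged regions of all lists there, and 4 on the rest, 0.0333% of 12013. CUT&Tag alone had 3 in the windows and 417 on the rest, and 10M alone had 1 and 43, so the balance between windows and rest was the reverse in those groups. The 28 regions were 800 to 21600 bp wide with a median of 3800 bp, together 175.6 kb, and their enrichment was low, 1.02 to 9.78 with a median of 1.39. No gene lay in 21 of them, and 10 held more than 200 IgG reads per kb. In 21 the sequence matched itself best when shifted by 178 bases, the length of the repeat unit printed above, and 14 lay between 11659801 and 12065400 of chromosome 5. In the region that holds the printed unit of chromosome 5 (chr5:11726001-11738600), the 20K libraries had 11004 and 11720 ChIP reads and enrichments of 1.15 and 1.14.

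Region by region, the 20K and 500K libraries were compared on their ChIP counts with edgeR's quasi-likelihood test over the 9327 merged regions that hold a domain in all 4 libraries. Only 5 regions were called at an adjusted p under 0.05 (Benjamini-Hochberg), 0.0536% of all tested, and 4 of them were among the 272 pericentromeric ones. All 4 were higher in 20K nuclei. In simulated counts this comparison recovered 17% of 1.5-fold changes and 81% of 2-fold changes, so smaller differences could be missed. The comparisons with 10M below recovered more of the 1.5-fold changes, 94% for 1 mg, 77% for eChIP and 52% for CUT&Tag. The numbers of calls are therefore not alike between comparisons. At an unadjusted p under 0.05 there were 34 pericentromeric regions (12.5%), against 11.6% of all regions, and the median log2 fold change was 0.00 in both sets. With 1 library left out, the arm it leaves with a single library is assumed to vary like the other group. In such fits the number of pericentromeric calls was 30 without 20K replicate 1, 31 without 20K replicate 2, 3 without 500K replicate 1 and 2 without 500K replicate 2, where 1109, 1168, 5 and 3 of all regions were called.

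The 4 regions all held sequence copied from the chloroplast genome. At AT2G12020 (chr2:4843801-4844200) the counts were 133 and 135 in 20K nuclei, against 78 and 89 in 500K nuclei (log2 fold change 1.98 ± 0.18 SE, adjusted p = 0.0284), and 57.3% of the region was chloroplast-like. At AT2G07080 (chr2:2938001-2938800) they were 435 and 437, against 312 and 318 (1.76 ± 0.14, adjusted p = 0.0202), with 77.5% chloroplast-like. Without 500K replicate 2, in a fit with 1 library in that arm, the adjusted p was 0.131. In each of these pseudogenes the raw counts differ less than the fitted folds, which scale for the depth of the libraries.

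The 2 longer regions behaved alike. Over AT2G07565, which encodes a protein with a Ycf1 domain, and AT2G07600 (chr2:3186601-3189800), the counts were 643 and 644 in 20K nuclei, against 384 and 312 in 500K nuclei (2.17 ± 0.19, adjusted p = 0.0260), with 85.7% chloroplast-like sequence. Over the transcribed pseudogenes AT3G32990 to AT3G33004 (chr3:13536601-13541600) they were 1369 and 1356, against 845 and 883 (1.95 ± 0.11, adjusted p = 0.00514), with 98.1%. The identity of these stretches with the chloroplast genome was between 93.6 and 97.3%, and how reads that match both genomes were assigned is not given in the sources used here. The fifth region called lay on the rest, over AT5G40910 and AT5G40920 (chr5:16394401-16401800), with 497 and 515 reads, against 250 and 334 (2.10 ± 0.13, adjusted p = 0.00514), no chloroplast-like sequence, and a called length of 7400 and 7000 bp, against 2000 and 2400 bp.

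Domains on chloroplast-like sequence occurred in the windows in 8 libraries only, those of CUT&Tag (10 and 7 domains), 20K (9 and 9), 100K (4 and 4) and 500K nuclei (5 and 5). The 20 other libraries had 0 there. On the rest, the same 8 libraries had 61 such domains and the other 20 had 13 together, 0 to 3 in each. The windows held 29 of the 75 chloroplast-like segments of at least 100 bp. By length they held the larger part of this sequence, 15.1 kb, against 10.8 kb on the rest. Of 12 regions that were at least 50% chloroplast-like, 7 lay in the windows, and all 12 were called in no library outside the 8. In the region over AT2G12020 enrichment was 5.75 and 5.42 with 20K nuclei, 2.66 and 1.98 with 100K and 2.72 and 2.80 with 500K, and it was 5.85 and 3.26 in CUT&Tag. The part that chloroplast DNA in the samples played in these domains was not tested. Domains were called on the chloroplast genome itself in 7 libraries. Of these, both of 20K nuclei and CUT&Tag replicate 1 belonged to the 8, while 0.5M replicate 1, 2M replicate 2, 12cyc replicate 2 and 14cyc replicate 2 had no chloroplast-like domain in the windows, and the other 5 of the 8 had none on the chloroplast genome.

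**Figure D3:**
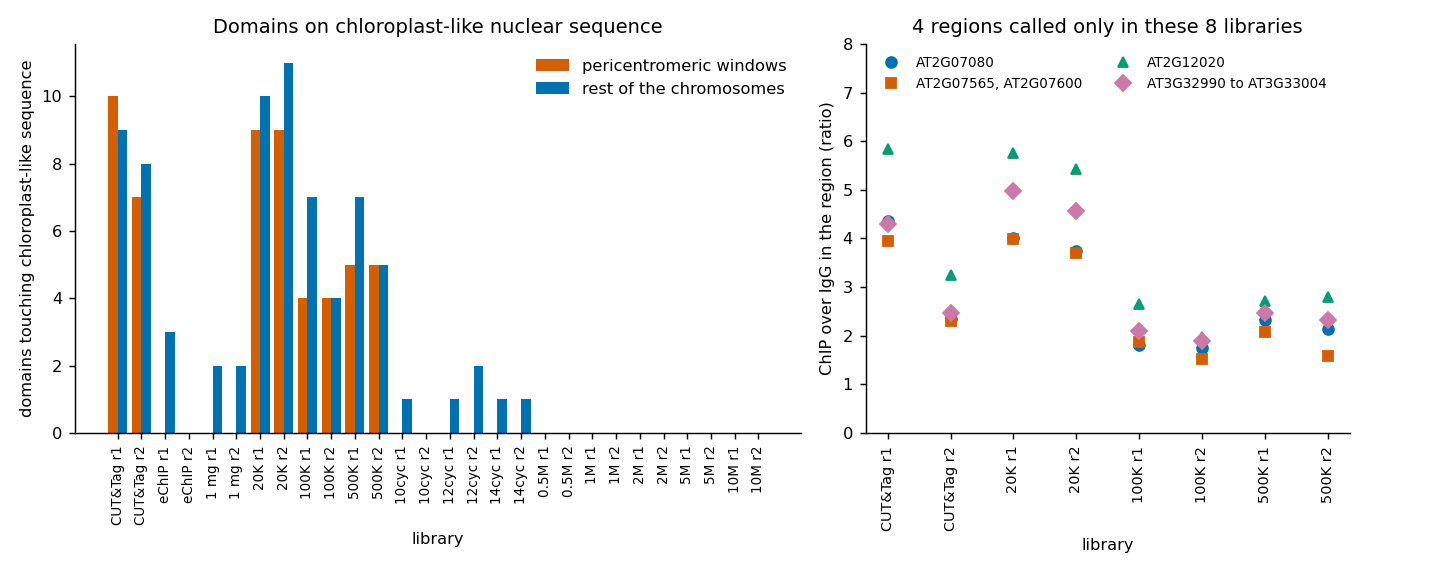
Left, number of domains that touch chloroplast-like nuclear sequence in each library, in the pericentromeric windows and on the rest of the chromosomes. Right, enrichment (ChIP over IgG) of the 4 regions called between 20K and 500K nuclei in the 8 libraries that have them. Bars for the windows appear only for CUT&Tag and for 20K, 100K and 500K nuclei, and the 20K points lie above those of 100K and 500K in all 4 regions.

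Copies of the mitochondrial genome took up 273 kb of the windows, most of it in 1 insertion on chromosome 2 (chr2:3250465-3509765, 259301 bp, 99.8% identical to the mitochondrial genome). CUT&Tag replicate 1 had a domain of 250200 bp there (chr2:3259601-3509800) with 86925 ChIP reads and a log2 fold change of 0.45. A further domain of that library, 19600 bp wide (chr2:3239001-3258600), had 6138 ChIP reads and a log2 fold change of 0.46. It began before the aligned start of the insertion and reached into it, and 99.4% of its bases were mitochondrion-like. The domain of 250200 bp touched 172 annotated genes. For the insertion, only the 124 genes numbered between AT2G07660 and AT2G07840 were counted. In CUT&Tag replicate 1 all 124 were touched, and in the other 27 libraries none was. The protein-coding genes among them count among the 1239 of the windows. The same library was also the only one with domains on the mitochondrial genome (2 domains, 139914 reads). It had 5.60% of its reads in domains in the windows, against 1.15% in CUT&Tag replicate 2.

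CUT&Tag found fewer of the pericentromeric regions of the 10M libraries. Of the 422 regions, 44.8% and 56.6% were found in the CUT&Tag libraries, against 77.2% and 87.6% of the 14349 regions on the rest, so the gap between windows and rest was -32.4 and -31.0 points. In the 14 other PHILO libraries of these series the gap ranged from -10.1 to -0.0845 points with a mean of -2.98 ± 2.90 (SD, n = 14). CUT&Tag lay below all 14, with a mean difference of -28.7 points and an exact two-sided permutation p of 0.0167. This is the smallest p that 2 against 14 libraries allow, and it did not pass the correction over 6 groups (adjusted p = 0.100). Here too the replicates of a group were permuted as separate libraries. The 20K libraries found fewer regions in both places, 67.5% and 75.1% in the windows and 70.8% and 76.0% on the rest, with gaps of -3.31 and -0.915 points within the range of the 14.

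The CUT&Tag gap was present among narrow, wide and strong regions. Among regions 200 to 600 bp wide, 23.9% and 39.1% were found in the windows, against 46.3% and 62.6% on the rest. Among those of at least 1800 bp it was 88.5% and 90.4%, against 96.3% and 98.96%. Among regions with an enrichment of at least 6 in the 10M libraries it was 58.5% and 71.3%, against 88.7% and 96.0%. In all, 177 of the 422 pericentromeric regions (41.9%) were in neither CUT&Tag library, against 1644 (11.5%) on the rest. All lists, those of CUT&Tag included, were called against the same IgG control.

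**Figure D4:**
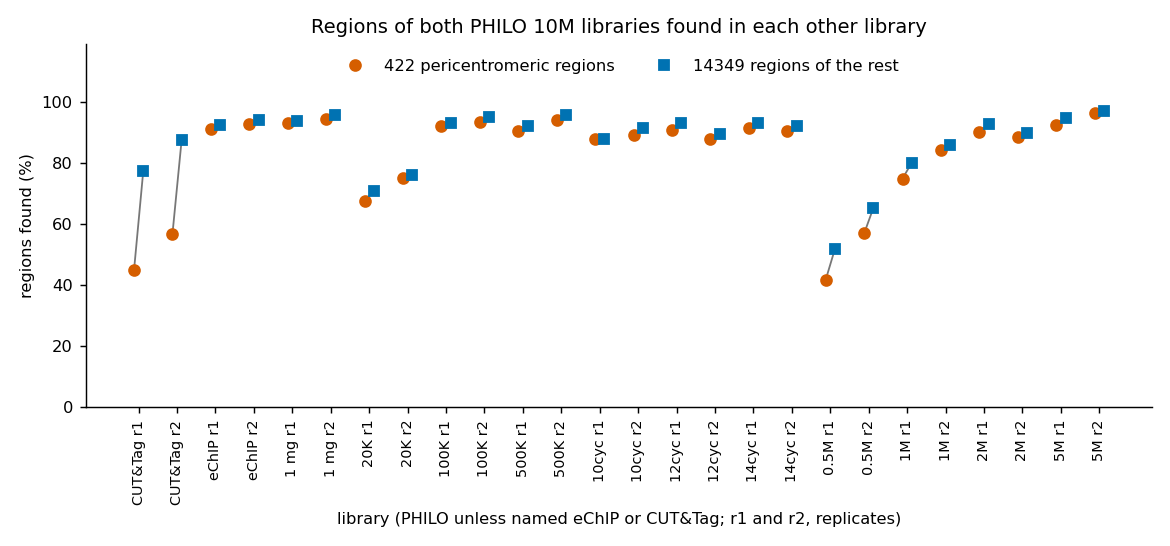
Percentage of the regions of both 10M libraries found in each of the 26 other libraries, for the 422 pericentromeric regions and for the 14349 regions on the rest of the chromosomes. The paired values lie close together in most libraries and far apart in CUT&Tag (44.8% and 56.6% in the windows, against 77.2% and 87.6% on the rest).

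The other comparisons were made against the same 2 libraries of 10M reads, which they therefore share. With edgeR's quasi-likelihood test, 1 mg of tissue gave 84 called regions of 389 pericentromeric ones (21.6%; 40 higher and 44 lower in 1 mg), where 27.4% of all 13231 regions were called (11.2% higher and 16.2% lower). eChIP gave 100 of 372 (26.9%; 37 higher and 63 lower), where 27.8% of 12663 were called (11.7% higher and 16% lower). CUT&Tag gave 123 of 174 (70.7%), where 47.4% of 8236 were called. Since a domain was needed in all 4 libraries, these were 174 of 461 merged pericentromeric regions and 8236 of 12999 merged regions in all. For 1 mg 389 of 442 merged pericentromeric regions were tested, and for eChIP 372 of 433. In CUT&Tag the called pericentromeric regions were 19 higher and 104 lower, against 25.3% higher and 22.1% lower over all regions, and the median log2 fold change was -0.59 in the windows and -0.01 over all regions. With the called length of each library as an offset, an alternative, the medians in CUT&Tag were -0.70 and -0.60. Thus the lower pericentromeric counts stood apart from those of other regions by less once the called length was taken into account.

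Counts of the 10M replicates differed by less than sampling noise (variance ratio 0.76 over 232 pericentromeric regions of equal called length), and so did those of 1 mg (0.83 over 203). The same ratio was 1.72 for 500K, 1.09 for 20K, 1.02 for eChIP and 1.16 for CUT&Tag. The replicates were kept as separate libraries because their lists and totals differ, and whether those of 10M and of 1 mg are technical was not tested. The p-values of the 3 comparisons with 10M rest on their spread. With only 1 of the 10M libraries, which is then assumed to vary like the other group, the called pericentromeric regions numbered 42 or 43 for 1 mg, 25 or 32 for eChIP and 64 or 67 for CUT&Tag.

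Some of the same genes led more than one comparison. At OPR3, 1 mg libraries had 776 and 675 reads, against 470 and 479 in the 10M libraries (log2 fold change 1.28 ± 0.07 SE, edgeR adjusted p = 6.03e-06), but their domains covered 3600 and 3400 bp, against 800 and 600 bp. At ILL6, which encodes a hydrolase of hormone conjugates, they had 572 and 554, against 335 and 405 (1.27 ± 0.08, adjusted p = 1.1e-05), on 3000 and 3000 bp, against 1000 and 1000 bp. With called length as an offset both turned to lower in 1 mg, at -1.07 and -0.31, and the regions over AT1G36050 and AT1G36060 did likewise, from a log2 fold change of 0.96 to one of -0.65. In eChIP these 3 regions also led among the higher ones, at 0.92 for OPR3, 1.16 for ILL6 and 1.04 for AT1G36050 and AT1G36060, and they too reversed with the offset (-1.36, -0.42 and -0.81).

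Among the lower regions, MIR396b, a microRNA gene whose product targets growth-regulating factors, had 95 and 97 reads in 1 mg, against 499 and 491 (-1.70 ± 0.11, edgeR adjusted p = 1.3e-05). In eChIP it had 111 and 123 (-1.59 ± 0.12, adjusted p = 0.000353). Its domains covered 600 and 800 bp in 1 mg and 600 bp in both eChIP libraries, against 2200 and 1800 bp, and with the offset the difference was -0.18 in 1 mg (adjusted p = 0.532) and 0.14 in eChIP (adjusted p = 0.482), neither of them called. AT1G35560 covered 1200 bp in the 1 mg and eChIP libraries and 1600 bp in 10M, with counts of 445 and 416 in 1 mg and 311 and 423 in eChIP, against 1074 and 1134 (-0.69 and -1.10). AT2G05920 was lower in 1 mg (358 and 335, against 856 and 939, -0.71 ± 0.07), and CYSD2 with DES1 was lower in eChIP (122 and 142, against 459 and 446, -1.29 ± 0.12), on 1000 and 1200 bp, against 3000 and 1600 bp. With the offset, AT1G35560 kept its call in eChIP (-0.69, edgeR adjusted p = 0.0269) and lost it in 1 mg (-0.28, adjusted p = 0.156), AT2G05920 lost it (-0.71, adjusted p = 0.0614), and so did CYSD2 with DES1 (-0.32, adjusted p = 0.447).

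Among the regions lower in CUT&Tag, those with the smallest adjusted p lay over 3 genes and over a region without a gene. GLR3.3 and PMI1 had 79 and 169 reads, against 931 and 1110 in 10M (-1.94 ± 0.13, edgeR adjusted p = 0.00106), on 800 and 1000 bp, against 2600 and 3600 bp. With the length offset this difference was -0.18 and lost the call (adjusted p = 0.493). NPQ4 had 54 and 106, against 545 and 596 (-1.72 ± 0.16, adjusted p = 0.00173), on 600 bp in both, against 1600 bp in both, and -0.31 with the offset (adjusted p = 0.210). The region over no gene at chr5:13102201-13103200 had 45 and 95, against 459 and 489 (-1.66 ± 0.15, adjusted p = 0.00162), with 800 bp covered in all 4 libraries, and its difference was also -1.66 with the offset (adjusted p = 0.000715). Its enrichment was 1.80 and 1.74 in CUT&Tag, against 6.30 and 6.05.

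Higher in CUT&Tag were AT2G06045 with OPR3 (303 and 733 reads, against 470 and 479, 1.20 ± 0.09), ILL6 (374 and 653, against 335 and 405, 1.63 ± 0.18) and the methionine sulfoxide reductase genes MSRB5 and MSRB6 with AT4G04995 (149 and 479, against 197 and 200, 1.67 ± 0.19), with edgeR adjusted p of 0.00131, 0.00239 and 0.00251. In raw counts the CUT&Tag libraries lay on both sides of the 10M values at OPR3 and at MSRB5, and the fitted folds scale for the depth of the libraries. With the length offset the first 2 turned to -1.32 and -0.08, and the third was 0.04 (adjusted p = 0.905), so none was called higher. OPR3 and ILL6 were thus called higher in 1 mg, in eChIP and in CUT&Tag, each time with a longer called stretch than in the 10M libraries that all 3 comparisons share.

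**Figure D5:**
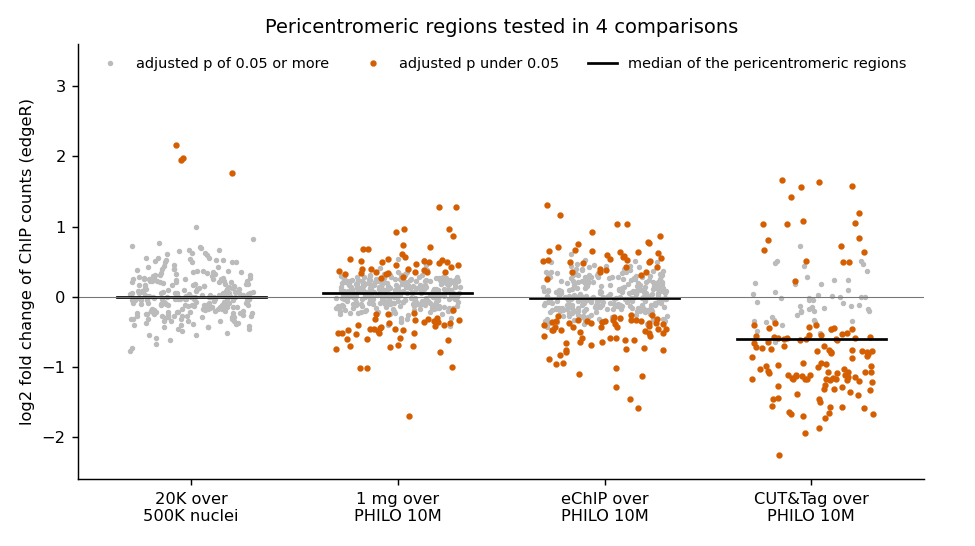
Log2 fold change of ChIP counts (edgeR) of the pericentromeric regions tested in 4 comparisons, with called regions in orange, other regions in grey and the median as a black line. Only 4 regions are called between 20K and 500K nuclei, and the median lies at -0.59 in CUT&Tag over 10M, below those of the other comparisons.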

How the data were processed

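ChIP-seq and CUT&Tag libraries of H3K9ac were made from whole Col-0 seedlings, and each of the 28 libraries had its own list of domains. The authors aligned the reads to TAIR10 with Bowtie2 and called domains per library with epic2 against IgG (the submitters' processing notes name SICER 0.0.52 and deepTools 3.5.2). The window, gap and FDR limit are not given in the sources used here, borders lay on a 200-bp grid, and the largest deposited FDR was 0.0498. For each domain the authors deposited whole-number counts of ChIP and IgG reads, the log2 fold change of these counts after scaling to library size, a p-value with its FDR, and a caller score that entered no result. All lists shared 1 IgG control. Relative depth, recovered from counts and fold changes, was 3.24 to 105% of the 10M mean, and low depth widens the error of single ratios.

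Groups came from the sample titles. A domain touched a gene when they overlapped by at least 1 bp of the RefSeq TAIR10.1 annotation. Windows and rest were compared within libraries by two-sided sign-flip permutation over the 14 group means, groups by exact permutation of libraries, and relations with depth by 100000 permutations. Merged domains present in each of the 4 libraries compared were tested on summed ChIP counts with edgeR 4.0.16 in R 4.3.3 (quasi-likelihood test, TMM, Benjamini-Hochberg over all regions), with DESeq2 1.42.0 as an alternative. The edgeR step was tested on simulated counts. Chloroplast-like sequence was found with blastn 2.17.0+ (at least 100 bp and 80% identity) and the mitochondrial insertion with minimap2 2.31-r1302. Python 3.11.15, NumPy 2.4.6, pandas 2.3.3, SciPy 1.17.1 and Biopython 1.88 served for the other steps.

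The members, gene lists and tests were chosen with earlier results of these data known. Named were, per window, the region of the 10M libraries with the highest ChIP over IgG ratio (at least 10 IgG reads) and the widest one. Per edgeR comparison, up to 3 regions with the smallest adjusted p in each direction were named, as were the members of the 4 gene lists (36 of 39 symbols matched the annotation, and loci were used for the others) and the 5 pseudogene regions without a protein-coding gene that occurred in the most libraries. The Sadhu family, the region over AT2G12020, the tandem repeats and the regions over no gene other than those of the rule were chosen after their values were seen. The alternatives without domains of more than 200 IgG reads per kb, without the groups of 0.5M reads, 20K nuclei and CUT&Tag, and those of the recovery gap were added after seeing the data.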

Additional observations from a re-analysis of the deposited data

Results flagged for a closer look

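In 3 groups every library had a lower enrichment in the windows than on the rest, while every library of the group set beside it had a higher one. The mean log2 ratio of enrichment in the windows over the rest was -0.98 in the libraries of 0.5M reads, against 0.08 in those of 10M reads. It was -0.76 in the libraries of 20K nuclei, against 0.07 in those of 500K nuclei, and -0.44 in CUT&Tag, against 0.08 in 10M. The CUT&Tag replicates were far apart, with -0.86 in replicate 1 and -0.01 in replicate 2. With 2 libraries on each side, these differences were not tested.

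Against the 16 PHILO libraries that varied in depth or cycles, the share of domains in the windows was higher by 0.484 percentage points with 20K nuclei and by 0.159 points with 100K nuclei. The share of reads was higher by 5.07 points with 20K nuclei, and it differed by -0.174 points in eChIP. In each of these 4 cases the exact permutation test gave an adjusted p of 0.0392, with both libraries outside the range of the 16. The eChIP shares of reads were 2.21% and 2.19%, against a median of 2.26% in the 16. The highest of the 16, 3.74%, was that of 0.5M replicate 1. Without the domains of high IgG, the eChIP shares were again 2.21% and 2.19%. They then lay inside the range of the 16, 1.98 to 2.29%, and this difference was not tested.

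Domains were also present on the organelle genomes, which no comparison used. On the chloroplast genome 7 domains were called, 1 each in 0.5M replicate 1, 2M replicate 2, 12cyc replicate 2, 14cyc replicate 2, both libraries of 20K nuclei and CUT&Tag replicate 1, and on the mitochondrial genome 2 were called, both in CUT&Tag replicate 1.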

How the results depend on the processing

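The lower density, width and protein-coding share in the windows and the higher share of pseudogenes and of domains without a gene kept their direction and their side of the threshold under every alternative run, with log2 density ratios from -3.30 to -2.77. The cause of the changes below was not tested. Pooled enrichment turned from -0.09 to 0.10 when a domain needed a log2 fold change of 1, to 0.084 without domains of more than 200 IgG reads per kb and to 0.083 without the 0.5M, 20K and CUT&Tag groups, the ones in which every library lay lower, so that this value is no independent sign of a direction. Measured by reads instead of domains, the depth relation turned to -0.64, and the differences from the 16 PHILO libraries were -0.101 (500K), -0.0614 (100K), -0.0860 (1 mg), -0.174 (eChIP) and 1.00 points (CUT&Tag). These values by reads include the domains of more than 200 IgG reads per kb. With such domains left out, the shares of the depth series were 1.98% and 2.11% at 0.5M reads and 2.28% and 2.26% at 10M, untested. The shares of 100K and eChIP without such domains are given above. Shortening the windows by 0.5 Mb at each end brought 500K (0.0813, exact permutation p = 0.0261) and 1 mg (0.0868, p = 0.0131) past the unadjusted threshold, as did a log2 fold change of at least 1 for 1 mg (0.172, p = 0.0131), while an FDR of at most 1e-10 lost it for eChIP (0.132, p = 0.144). Leaving out each replicate in turn gave 0.436 to 0.531 points for 20K, 0.133 to 0.168 for 100K, 0.0575 to 0.137 for 500K, 0.0995 to 0.135 for 1 mg, 0.105 to 0.147 for eChIP, -0.745 to -0.372 for CUT&Tag, and rho of 0.915 to 0.983 for depth. With 1 library left in a group, every exact permutation p was 0.118 or more. The recovery gap gave -29.5 to -28.0 for CUT&Tag (p = 0.133 with 1 of its libraries), -0.330 to 2.07 for 20K, reversed without 20K replicate 2, and 1.51 to 2.47 for 1 mg, which passed the threshold without 10cyc replicate 1 (2.28, exact permutation p = 0.0381).

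Pericentromeric calls between 20K and 500K nuclei numbered 7 with regions covered for at least 80% in every library (58 tested) and 2 to 31 on leaving out a replicate. For 1 mg they were 51 with DESeq2, 3 with called length as offset and 42 to 84 on leaving out a replicate, for eChIP 51, 34 and 25 to 142, and for CUT&Tag 11 with regions covered for at least 80% (13 tested) and 64 to 146. The offset moved the median of all regions by -0.06 (1 mg), -0.23 (eChIP) and -0.60 (CUT&Tag). It reversed OPR3 (-1.07), ILL6 (-0.31) and AT1G36050 with AT1G36060 (-0.65) in 1 mg, AT1G36050 with AT1G36060 (-0.81), OPR3 (-1.36), ILL6 (-0.42) and MIR396b (0.14) in eChIP, and OPR3 (-1.32) and ILL6 (-0.075) in CUT&Tag. Samples with the same replicate number did not deviate together (correlations of 0.01, -0.02, 0.00 and 0.02), so they share only a number. With the replicate number as a block, the pericentromeric calls were 5 (20K), 82 (1 mg), 90 (eChIP) and 111 (CUT&Tag), and 57, 3726, 3359 and 3487 over all regions, against 5, 3624, 3514 and 3904 without it.

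Regions were compared only where all libraries called a domain, reads outside domains were not analysed here, and libraries of low depth give wide errors for single regions. Each group had 2 libraries.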

Other observations

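The start windows of pericentromeric protein-coding genes (250 bases before to 50 after the start) were described by 4 letter runs searched on both strands. Of the 378 genes in the windows whose region was found in the 10M libraries, 55.6% held TATAAA, 6.88% CACGTG, 11.9% TGGGCC and 4.23% AAACCCTA. The 722 genes of the windows with no domain in any list held them at 49.9%, 3.74%, 6.37% and 7.20%, and the 16743 genes with a 10M region on the rest at 49.9%, 9.07%, 20.3% and 5.88%. Over all 27443 protein-coding genes the shares were 52.1%, 7.68%, 15.5% and 6.22%. GC content was 29.8% in the first set, 33.3% in the second and 32.3% in the third. These shares are descriptions without a test.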
